A study of Mus musculus with 15 samples.

Results

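The comparison concerns the effect of the Trappc1 genotype on the transcriptome of sorted mouse bone marrow progenitors, in the libraries numbered 3 and 4 of each group. These are 8 of the 15 libraries analysed, chosen by the number at the end of the library name: 4 Trappc1KO libraries (KO; 2 CMP and 2 GMP) and 4 Trappc1WT libraries (WT; 2 CMP and 2 GMP), with no treatment. Libraries 1 and 2 were left out because earlier results on these data had shown that they stand apart. CMP are common myeloid progenitors (negative for lineage antigens and Sca1, positive for CD117 and CD34, low for CD16/32), and GMP are granulocyte-monocyte progenitors (the same antigens, high for CD16/32). The labels leave unstated which promoter or Cre driver was used, which exons were deleted, how old the mice were and whether animals were pooled. The labels do not say that libraries came from separate animals, nor whether a CMP and a GMP library of the same genotype and number came from 1 animal, so each p-value reflects variation among these libraries only, and that variation may be technical.

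TRAPPC1 is a small core subunit of the TRAPP complexes, which act as exchange factors for Rab GTPases and help tether transport vesicles on their way from the endoplasmic reticulum (ER) to the Golgi and within the Golgi and autophagy routes. Cells that secrete or store much protein, among them granule-bearing myeloid cells and plasma cells, depend on that traffic. CMP give rise to erythroid and megakaryocytic cells and to GMP, and GMP give rise to neutrophils, monocytes and, through related progenitors, basophils, eosinophils and mast cells.

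Deposited values are estimated counts per gene, given here as CPM (counts per 1e+06 of the library total after scaling), with totals of 74.6 to 120.3 M units per library, or about 18.6 to 30.1 M fragments. Of the sort-gate transcripts, those of Fcgr3 and Kit followed the labels in both genotypes. Fcgr3, which encodes CD16, had 304 and 287 CPM in KO GMP and 298 and 306 CPM in WT GMP, while it had 30.4 and 27.8 CPM in KO CMP and 36.3 and 38.4 CPM in WT CMP. Kit, which encodes CD117, lay between 250.4 and 364 CPM in all 8 libraries. Cd34 was present in both but lay between 640 and 724 CPM in CMP and between 200 and 224 CPM in GMP. Ly6a, which encodes Sca1, was not absent, at 33.0 to 44.6 CPM in CMP and 5.47 to 8.26 CPM in GMP. Cell type took the first principal component (62% of the variance), and on the second (8.1%) the 4 KO libraries (0.696 to 37.3) lay apart from the 4 WT libraries (-37.1 to -13.1).

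Trappc1 itself (ENSMUSG00000049299.14, chr11:69323980-69325793, plus strand, GRCm38) was still present in KO libraries and did not pass the test. It had 11.4 and 13.2 CPM in KO CMP and 23.6 and 24.5 CPM in KO GMP, against 18.6 and 24.6 CPM in WT CMP and 30.2 and 32.4 CPM in WT GMP. Both KO libraries lay below both WT libraries in each cell type, but KO GMP overlapped WT CMP. The pooled log2 change was -0.59 ± 0.11 (SE, 4 against 4 libraries), with an edgeR adjusted p of 0.0524, just outside the threshold of 0.05. An exact permutation test within cell types gave a two-sided p of 0.0556, which is the smallest that its 36 arrangements allow. In the libraries numbered 1 and 2 the same contrast was -2.43 ± 0.18, and the difference between the sets, 1.83 ± 0.23 on the log2 scale, passed the test (adjusted p = 0.000129). The files hold 1 value per gene, so reads from the deleted part and the rest of the transcript cannot be told apart. Of the other 13 tested TRAPP subunit genes, 0 passed the test. The median log2 change over the 14 subunits was 0.0035, beside -0.01 over all tested genes.

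Of 14959 genes tested in the pooled fit, which has genotype and cell type as terms, 40 were higher in KO (0.267% of those tested) and 75 were lower (0.501%), or 115 in all (0.769%). At an unadjusted p under 0.05 there were 1045 higher and 1185 lower genes. The changes were small: the median size of the log2 change over the 115 called genes was 0.44, and 92.2% of them changed less than 2-fold. For all 115 the KO and WT libraries did not overlap in CMP nor in GMP. Over all tested genes, such separation in the same direction was seen for 7.73% (KO higher) and 7.8% (KO lower). All 40 higher genes were also positive, and all 75 lower genes negative, in the contrast of each cell type alone, taken from a fit of the 8 libraries as 4 groups with a shared spread. For genes without overlap in either cell type these signs were fixed in advance, so they add no support. Far fewer passed the test there. CMP alone gave 4 higher (0.0267%) and 15 lower genes (0.1%), and GMP alone gave 3 higher (0.0201%) and 8 lower genes (0.0535%).

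These counts fell whichever library was left out. Each such fit holds fewer data, so a fall alone does not single out a library. Without KO CMP 3 the test called 10 higher and 21 lower genes, without KO CMP 4 it called 16 and 39, without KO GMP 3 it called 16 and 28, and without KO GMP 4 it called 7 and 15. Without WT CMP 3 it called 34 and 69, without WT CMP 4 it called 13 and 29, without WT GMP 3 it called 8 and 14, and without WT GMP 4 it called 22 and 39. The direction of all 115 genes held in each of these fits, but their separation within both cell types had nearly fixed that in advance. In all 8 of them, 18 genes were called, listed here for that reason. The 6 higher ones were Atf3, Cxcl2, Tnfaip3, Nr4a1, Odc1 and Hist3h2a. The 12 lower ones were Igj, 2010001M09Rik, Ly6d, Prss34, Cyp4f18, Ptpro, Clec10a, Pld4, Ctsh, Il10ra, Psap and Irf8. When all 15 libraries entered the fit, 5 higher and 6 lower genes were called. If the CMP and GMP libraries of 1 genotype and number came from 1 animal, they would not be independent. When they were averaged, 1 higher gene and 3 lower genes were called. When they were kept apart but allowed to correlate, in a limma-voom fit, 37 higher and 72 lower genes were called (consensus correlation 0.141). These fits were added after the data were seen.

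The 4 largest called decreases were in 2010001M09Rik, Igj, Pou2af1 and Ly6d. Igj (now Jchain), which encodes the chain that joins IgM and IgA into polymers, had 19.9 and 17.8 CPM in KO CMP and 33.4 and 31.6 CPM in KO GMP, against 78.4 and 87.7 CPM in WT CMP and 174 and 169 CPM in WT GMP. Every KO library lay below every WT library, and the pooled log2 change was -2.27 ± 0.07 (adjusted p = 7.5e-07). 2010001M09Rik (now Mzb1), an ER protein that assists antibody secretion, had 0.636 and 0.911 CPM in KO CMP and 0.494 and 0.466 CPM in KO GMP, against 3.63 and 4.95 CPM in WT CMP and 4.31 and 3.81 CPM in WT GMP (-2.75 ± 0.22, adjusted p = 0.001). Pou2af1, a coactivator of octamer-binding factors in B cells, changed by -1.96 ± 0.30, and Ly6d, a surface antigen of lymphoid-committed progenitors, by -1.91 ± 0.19. Ly6d had 1.17 and 1.21 CPM in KO CMP and 0.185 and 0.170 CPM in KO GMP, against 4.10 and 4.55 CPM in WT CMP and 0.730 and 0.688 CPM in WT GMP. Derl3, an ER-associated degradation factor abundant in plasma cells, had 0.800 and 1.47 CPM in KO CMP and 1.88 and 1.78 CPM in KO GMP, against 2.37 and 2.40 CPM in WT CMP and 4.11 and 3.34 CPM in WT GMP (-1.04 ± 0.20, adjusted p = 0.0536).

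The list of 22 B cell and plasma cell genes held 3 lower and 0 higher calls (0.501% of all tested genes were called lower), with a median log2 change of -0.55. Its summed level was 369 and 396 CPM in KO CMP and 246 and 243 CPM in KO GMP, against 451 and 499 CPM in WT CMP and 407 and 399 CPM in WT GMP. Pax5, the transcription factor that commits cells to the B lineage, was near 0 throughout, from 0 to 0.271 CPM in KO and from 0 to 0.416 CPM in WT. A value of 0 allows up to 0.17 CPM in the shallowest library (3 fragments, counting error only). Cd79a, the signalling chain of the B cell receptor, had 1.54 and 2.31 CPM in KO CMP and 0.689 and 0.396 CPM in KO GMP, against 3.19 and 3.78 CPM in WT CMP and 2.98 and 1.71 CPM in WT GMP, which did not pass the test (-1.44 ± 0.33, adjusted p = 0.0916). Of 22 tested T and NK cell genes, 0 passed, with a median of -0.43. Their summed level was 68.2 and 69.5 CPM in KO CMP and 26.3 and 21.2 CPM in KO GMP, against 104 and 104 CPM in WT CMP and 26.1 and 24.5 CPM in WT GMP. Genes this low can pass the filter through the libraries where they are higher, so these medians are descriptions only. Ly6d belongs to the list of 22 dendritic cell and MHC class II genes, of which it alone was called lower and 0 higher, with a median of -0.26. At an unadjusted p under 0.05, 12 of the 22 were lower and 1 higher. Its plasmacytoid dendritic cell marker Siglech had 2.70 and 2.73 CPM in KO CMP and 0.350 and 0.127 CPM in KO GMP, against 9.25 and 8.90 CPM in WT CMP and 0.139 and 0.280 CPM in WT GMP. KO CMP lay below WT CMP and the GMP libraries overlapped near 0, and Siglech did not pass the test (-1.08 ± 0.41, adjusted p = 0.264). Fewer cells of a type in the sort and less RNA per cell cannot be told apart in bulk libraries, and the part of rare admixed cells in these results was not tested.

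All called members of the monocyte and macrophage list were lower in KO, by modest amounts. Of 28 tested members, 8 were lower and 0 higher, the median was -0.30, and 3 members were positive. Over all tested genes 0.501% were called lower and 47.4% were positive. The summed level was 3249 and 3297 CPM in KO CMP and 3752 and 3711 CPM in KO GMP, against 4106 and 4180.0 CPM in WT CMP and 4634 and 4605 CPM in WT GMP. Psap, the precursor of the lysosomal saposins, had 905 and 957 CPM in KO CMP and 769.9 and 771 CPM in KO GMP, against 1197 and 1255 CPM in WT CMP and 1030.4 and 1082 CPM in WT GMP (-0.43 ± 0.04, adjusted p = 0.00277). Irf8, a transcription factor required for monocyte and dendritic fates, had 446 and 463 CPM in KO CMP and 345 and 338 CPM in KO GMP, against 618 and 639 CPM in WT CMP and 447 and 434 CPM in WT GMP (-0.42 ± 0.04, adjusted p = 0.00306). KO and WT libraries were apart within each cell type for both genes, and for Psap every KO library lay below every WT library, while for Irf8 KO CMP was above 1 or both WT GMP libraries. Csf1r, the receptor for macrophage colony-stimulating factor, had 136 and 132 CPM in KO CMP and 139 and 137 CPM in KO GMP, against 180.5 and 173 CPM in WT CMP and 190.3 and 170.3 CPM in WT GMP. All 4 KO libraries lay below all 4 WT libraries (-0.39 ± 0.05, adjusted p = 0.00774). F13a1, the A chain of coagulation factor XIII and a monocyte transcript, changed by -0.34 ± 0.04. Lgals3 (galectin-3), Tyrobp (an adaptor of activating receptors), Mpeg1 (perforin-2) and Ccr2 (a chemokine receptor) fell by 0.72, 0.32, 0.31 and 0.24 on the log2 scale. Of the 8 fits without 1 library, Csf1r was called in 7, F13a1 in 6, Lgals3 and Mpeg1 in 2 each, and Tyrobp and Ccr2 in 1 each.

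Other large called decreases were in genes of varied roles. Pld4, an endolysosomal exonuclease, had 50.4 and 55.9 CPM in KO CMP and 53.7 and 51.0 CPM in KO GMP, against 82.0 and 86.1 CPM in WT CMP and 80.3 and 86.1 CPM in WT GMP. The 4 KO libraries thus sat within 50.4 to 55.9 CPM whatever the cell type, and the 4 WT libraries within 80.3 to 86.1 CPM (-0.66 ± 0.05, adjusted p = 0.001). Lgmn, a lysosomal endopeptidase, changed by -0.73 ± 0.10. The C-type lectin Clec10a changed by -0.69 ± 0.08, and Cyp4f18, which inactivates leukotriene B4, by -0.94 ± 0.08. The receptor phosphatase gene Ptpro changed by -0.86 ± 0.08. Decreases between 0.65 and 0.98 on the log2 scale were also called for Ahnak (a scaffold protein), Abca9 (an ABC transporter), Olfm1 (a secreted olfactomedin), Gpr183 (an oxysterol receptor), P2rx7 (an ATP-gated channel) and Lilrb3 (an inhibitory receptor). Of 38 autophagy and lysosome genes, 0 passed the test, and their median was -0.05. Psap, Pld4 and Lgmn, called lower, are not among these 38. Of the 38, 10 were positive, beside 47.4% of all tested genes. Without overlap in both cell types, 8 were lower and 1 higher, beside 7.8% and 7.73% of all tested genes.

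In the list of mast cell, basophil and eosinophil genes, 3 of 25 were lower and 0 higher (0.501% of all tested genes were called lower), with a median of -0.42. Prss34, a tryptase-like protease of basophils and mast cells, had 10.5 and 9.34 CPM in KO CMP and 305 and 291 CPM in KO GMP, against 19.7 and 25.2 CPM in WT CMP and 644 and 588 CPM in WT GMP. Both KO libraries lay below both WT libraries in each cell type (-1.11 ± 0.08, adjusted p = 0.000778). Epx, eosinophil peroxidase, had 3.92 and 6.13 CPM in KO CMP and 881 and 837 CPM in KO GMP, against 7.53 and 9.40 CPM in WT CMP and 1233 and 1480.5 CPM in WT GMP (-0.70 ± 0.12, adjusted p = 0.0412), and its call was lost in 6 of the 8 fits without 1 library. Fcer1a, the ligand-binding chain of the IgE receptor, changed by -0.59 ± 0.09. Prg2, the eosinophil major basic protein, had 11.03 and 20.6 CPM in KO CMP and 2497 and 2494 CPM in KO GMP, against 21.8 and 25.2 CPM in WT CMP and 3787 and 4925 CPM in WT GMP, and did not pass (-0.69 ± 0.17, adjusted p = 0.104). The summed level of the list was 780.2 and 766 CPM in KO CMP and 5052 and 4955 CPM in KO GMP, against 808 and 793 CPM in WT CMP and 7370.0 and 8994 CPM in WT GMP.

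**Figure D1:**
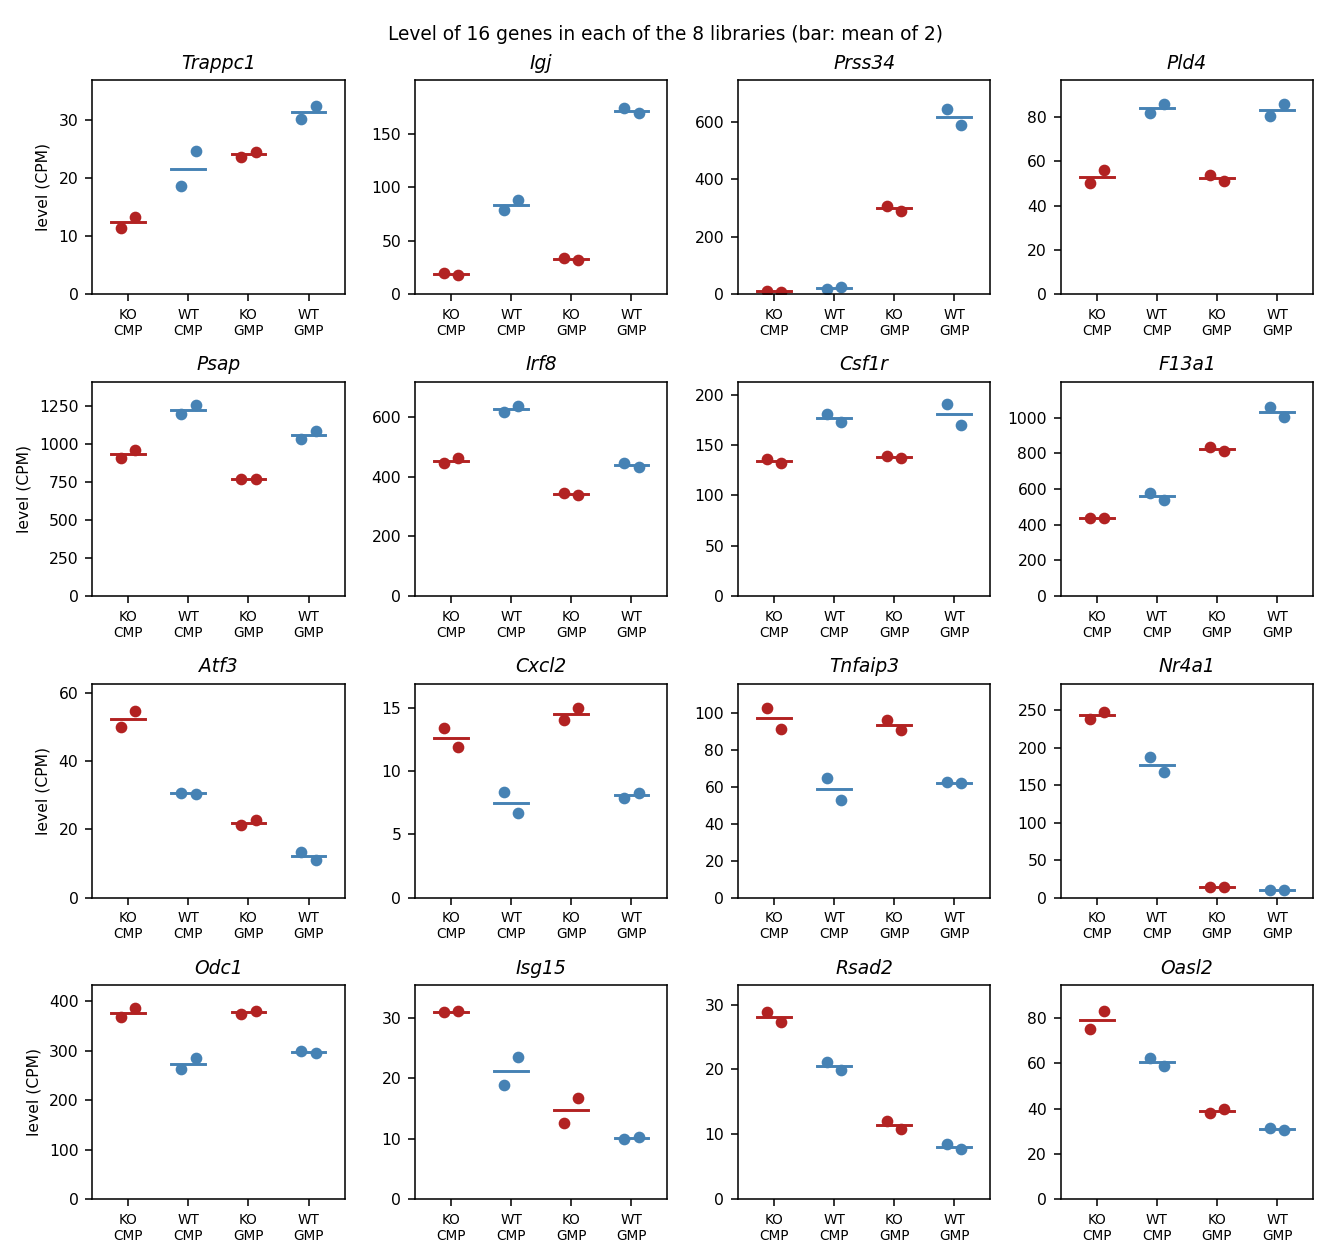
Level in CPM (linear axes from 0) of 16 genes in each of the 8 libraries, KO in red and WT in blue, with a point per library (number 3 left, number 4 right) and a bar at the mean of 2. In every panel both KO points lie on the same side of both WT points within CMP and within GMP, as for Igj (19.9 and 17.8 CPM in KO CMP against 78.4 and 87.7 CPM in WT CMP).

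The called genes were searched for short motifs in RefSeq promoter windows (GRCm38.p6, 250 bases before to 50 after each gene start), on both strands. A window was found for 60 of the 75 lower and 31 of the 40 higher genes and for 11655 of all tested genes. The motif GAGGAAGT, bound by PU.1 and other ETS factors, stood in the window of 10 of the 60 lower genes (16.7%) and of 0 of the 31 higher genes, beside 3.79% of all tested genes with a window. A match describes these letters alone. The 3 lower genes with the smallest p among those that hold it were Pld4 (chr12:112760405-112760704, plus strand, match 9 bases after the gene start), F13a1 (chr13:37049164-37049463, minus strand, second annotated start, match 14 bases after it) and P2rx7 (chr5:122650133-122650432, plus strand, second annotated start, match 3 bases after it on the opposite strand). They are shown to place the motif, in capitals. None of these matches overlaps a match of the other motifs searched.
Pld4: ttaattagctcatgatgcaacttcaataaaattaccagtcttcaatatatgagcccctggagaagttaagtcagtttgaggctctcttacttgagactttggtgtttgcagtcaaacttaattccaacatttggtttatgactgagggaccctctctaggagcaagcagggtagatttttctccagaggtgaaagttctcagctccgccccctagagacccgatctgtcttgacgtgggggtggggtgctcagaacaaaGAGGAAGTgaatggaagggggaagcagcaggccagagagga
F13a1: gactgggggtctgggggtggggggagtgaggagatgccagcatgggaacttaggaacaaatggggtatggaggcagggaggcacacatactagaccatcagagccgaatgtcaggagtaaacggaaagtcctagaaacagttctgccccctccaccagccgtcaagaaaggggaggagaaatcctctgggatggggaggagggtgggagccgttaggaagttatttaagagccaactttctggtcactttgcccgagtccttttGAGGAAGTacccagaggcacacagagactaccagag
P2rx7: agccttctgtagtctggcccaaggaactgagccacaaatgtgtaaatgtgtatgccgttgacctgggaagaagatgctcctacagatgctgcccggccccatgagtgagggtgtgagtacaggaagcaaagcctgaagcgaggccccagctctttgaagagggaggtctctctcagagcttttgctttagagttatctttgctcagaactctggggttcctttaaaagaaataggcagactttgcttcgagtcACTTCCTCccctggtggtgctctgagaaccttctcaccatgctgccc

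The largest called increase was in Phlda1, a pleckstrin homology-like protein gene, named after its value was seen since its mean is under 5 CPM. It had 7.95 and 8.28 CPM in KO CMP and 2.84 and 2.43 CPM in KO GMP, against 4.08 and 4.54 CPM in WT CMP and 1.27 and 1.71 CPM in WT GMP (0.87 ± 0.13, adjusted p = 0.0208). KO libraries were above WT libraries in each cell type, and the call held in 2 of the 8 fits without 1 library. Atf3, a stress-induced transcription factor, had 49.9 and 54.7 CPM in KO CMP and 21.2 and 22.6 CPM in KO GMP, against 30.5 and 30.4 CPM in WT CMP and 13.3 and 10.9 CPM in WT GMP (0.81 ± 0.07, adjusted p = 0.00153). Cxcl2, a neutrophil chemokine, had 13.4 and 11.9 CPM in KO CMP and 14.1 and 14.97 CPM in KO GMP, against 8.34 and 6.71 CPM in WT CMP and 7.86 and 8.32 CPM in WT GMP. For Cxcl2 all 4 KO libraries were above all 4 WT libraries (0.80 ± 0.09, adjusted p = 0.00556). Tnfaip3 (A20), an inhibitor of NF-kappaB signalling, likewise had 103 and 91.0 CPM in KO CMP and 95.7 and 90.3 CPM in KO GMP, against 64.6 and 52.9 CPM in WT CMP and 62.5 and 61.9 CPM in WT GMP (0.65 ± 0.07, adjusted p = 0.00556). Trib1, a pseudokinase that directs C/EBP alpha to degradation, changed by 0.72 ± 0.09, and the early activation antigen gene Cd69 by 0.56 ± 0.07. Smaller called increases, between 0.44 and 0.70 on the log2 scale, were found for Icam4 (an adhesion molecule), Plk2 (a kinase), Gem (a small GTPase), Ccrl2 (an atypical chemokine receptor), Pde4b (a cAMP phosphodiesterase), Iigp1 (an interferon-inducible GTPase) and Hist3h2a (a histone H2A gene). Histone paralogs share sequence, so the last value is uncertain.

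Of 28 immediate early genes tested, 5 were higher and 0 lower. The median was 0.15, and 23 of the 28 were positive, beside 0.267% called higher and 47.4% positive over all tested genes. The orphan nuclear receptor gene Nr4a1 had 238 and 247 CPM in KO CMP and 14.7 and 14.6 CPM in KO GMP, against 187 and 167 CPM in WT CMP and 10.8 and 10.3 CPM in WT GMP (0.46 ± 0.05, adjusted p = 0.00482). Its level differed far more between cell types than between genotypes. The AP-1 gene Fosb changed by 0.34 ± 0.06, Klf6 by 0.34 ± 0.05 and Ier3 by 0.27 ± 0.05, and Atf3 is the fifth member. In the 8 fits that left out 1 library, Fosb was called in 1, Klf6 in 2 and Ier3 in 0, while Atf3 and Nr4a1 were called in all 8. Atf3 was also the only call among 29 targets of ATF4 and CHOP, of which 26 were positive, with a median of 0.13. Slc3a2, an amino acid transporter subunit and ATF4 target, had 142 and 144 CPM in KO CMP and 125 and 128 CPM in KO GMP, against 126 and 122 CPM in WT CMP and 111 and 110.0 CPM in WT GMP, and did not pass (0.20 ± 0.04, adjusted p = 0.0617). Of 29 p53 targets, Cdkn1a (p21) and Plk2 were higher and 0 lower. Cdkn1a had 82.2 and 82.5 CPM in KO CMP and 37.7 and 42.3 CPM in KO GMP, against 56.2 and 58.6 CPM in WT CMP and 34.3 and 32.6 CPM in WT GMP (0.39 ± 0.07), and was called in 1 of the 8 fits without 1 library, while Plk2 was called in 3.

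All called members of the interferon-stimulated list were higher in KO, by small amounts. Of 43 tested, 6 were higher and 0 lower, 40 were positive, and the median was 0.19. Over all tested genes 0.267% were called higher and 47.4% were positive. Rsad2 (viperin), an antiviral enzyme, had 28.9 and 27.3 CPM in KO CMP and 12.1 and 10.9 CPM in KO GMP, against 21.2 and 19.9 CPM in WT CMP and 8.47 and 7.79 CPM in WT GMP (0.47 ± 0.07, adjusted p = 0.0148). Isg15, a ubiquitin-like modifier, had 30.9 and 31.1 CPM in KO CMP and 12.7 and 16.8 CPM in KO GMP, against 18.9 and 23.5 CPM in WT CMP and 9.996 and 10.2 CPM in WT GMP (0.55 ± 0.10, adjusted p = 0.0412). The antiviral genes Oasl2 and Oasl1 changed by 0.36 ± 0.05 and 0.34 ± 0.06, the transcription factor gene Irf7 by 0.33 ± 0.06 and the chaperone gene Rtp4 by 0.32 ± 0.06. Oasl1 and Oasl2 are close paralogs, so their split is uncertain, and the calls of Oasl1, Irf7 and Rtp4 were lost in each of the 8 fits that left out 1 library. Isg15 kept its call in 1 of those fits and Rsad2 in 3. The summed level of the list was 2451 and 2500.0 CPM in KO CMP and 1599 and 1603 CPM in KO GMP, against 2169 and 2174 CPM in WT CMP and 1485 and 1469 CPM in WT GMP.

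The interferon-stimulated response element, searched as GAAA, any 2 bases and GAAA again, stood in 20 of the 31 interferon list promoters with a window (64.5%), beside 3.74% of all tested genes. It stood in 5 of the 31 called higher genes (16.1%) and 2 of the 60 called lower genes (3.33%). The called members of the list found to hold it, Rsad2 and Isg15, are shown with the motif in capitals. Oasl2, Oasl1, Irf7 and Rtp4 are not among the called genes in which it was found. In Rsad2 (chr12:26456403-26456702, minus strand) it begins 120 bases before the gene start and reads on the opposite strand. In Isg15 (chr4:156200769-156201068, minus strand) 3 overlapping matches begin 78, 72 and 66 bases before it.
Rsad2: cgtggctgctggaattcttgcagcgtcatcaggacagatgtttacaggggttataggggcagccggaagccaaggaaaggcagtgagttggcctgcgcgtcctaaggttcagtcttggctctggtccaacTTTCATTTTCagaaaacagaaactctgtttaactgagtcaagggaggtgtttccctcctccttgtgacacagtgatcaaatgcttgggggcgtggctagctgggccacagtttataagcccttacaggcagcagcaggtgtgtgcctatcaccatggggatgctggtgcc
Isg15: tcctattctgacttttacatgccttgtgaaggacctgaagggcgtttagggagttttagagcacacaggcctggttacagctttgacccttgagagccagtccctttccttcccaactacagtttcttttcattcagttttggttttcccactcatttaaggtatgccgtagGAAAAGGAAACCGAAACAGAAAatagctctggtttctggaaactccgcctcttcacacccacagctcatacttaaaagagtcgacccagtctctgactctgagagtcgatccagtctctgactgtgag
The other motifs searched were TGACGTCA (cAMP response element), an ETS and IRF composite element (GGAA, any 2 bases, GAAA) and CACGTG (E-box). TGACGTCA stood in 1 of 31 higher genes, 3 of 60 lower genes and 3.34% of all tested genes. The composite element stood in 2 of 31 higher genes, 3 of 60 lower genes and 2.87% of all tested genes. CACGTG stood in 7 of 31 higher genes (22.6%), 7 of 60 lower genes (11.7%) and 11.2% of all tested genes.

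The called genes of ribosome assembly, growth and heat shock were also higher, by small amounts. Of 38 ribosome biogenesis genes, Ncl (nucleolin) and Nolc1, both nucleolar proteins, were higher and 0 lower. All 38 were positive, with a median of 0.19, beside 0.267% called higher and 47.4% positive over all tested genes. In the 8 fits without 1 library, Ncl was called in 2 and Nolc1 in 1. Ncl had 1759 and 1863 CPM in KO CMP and 1684 and 1683 CPM in KO GMP, against 1367 and 1454 CPM in WT CMP and 1341 and 1520.5 CPM in WT GMP, with all KO libraries above all WT libraries (0.30 ± 0.05, adjusted p = 0.0412). Of 26 genes of MYC and nucleotide synthesis, Odc1 and Hspd1 were higher and 0 lower, with a median of 0.18. Odc1, ornithine decarboxylase of polyamine synthesis, had 368 and 386 CPM in KO CMP and 374 and 379.9 CPM in KO GMP, against 263 and 285 CPM in WT CMP and 299 and 295 CPM in WT GMP (0.40 ± 0.05, adjusted p = 0.00663). Of 26 heat shock genes, Hsp90aa1 and the mitochondrial chaperonin gene Hspd1 were higher and 0 lower, with a median of 0.16. Hsp90aa1 and Hspd1 were each called in 1 of the 8 fits without 1 library, and Odc1 in all 8. Of 59 nuclear genes of oxidative phosphorylation, 0 passed the test and all 59 were positive, with a median of 0.12. In CMP alone the median was 0.23 with all 59 positive, and in GMP alone it was 0.04 with 41 positive. The summed level of these 59 was 11650 and 12480 CPM in KO CMP against 9619 and 11280 CPM in WT CMP. In GMP it overlapped, at 12870 and 13200 CPM in KO against 12410 and 12940 CPM in WT. These genes move together, so they are not separate observations. Of 79 cytosolic ribosomal protein genes, 0 passed and 77 were positive, with medians of 0.08 pooled, 0.15 in CMP and 0.02 in GMP. In CMP alone all 79 and in GMP alone 47 of these genes were positive. Their summed level overlapped between genotypes, at 119635 and 134497 CPM in KO CMP and 112522 and 117744 CPM in KO GMP, against 103176 and 126365 CPM in WT CMP and 110860.0 and 117959 CPM in WT GMP.

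**Figure D2:**
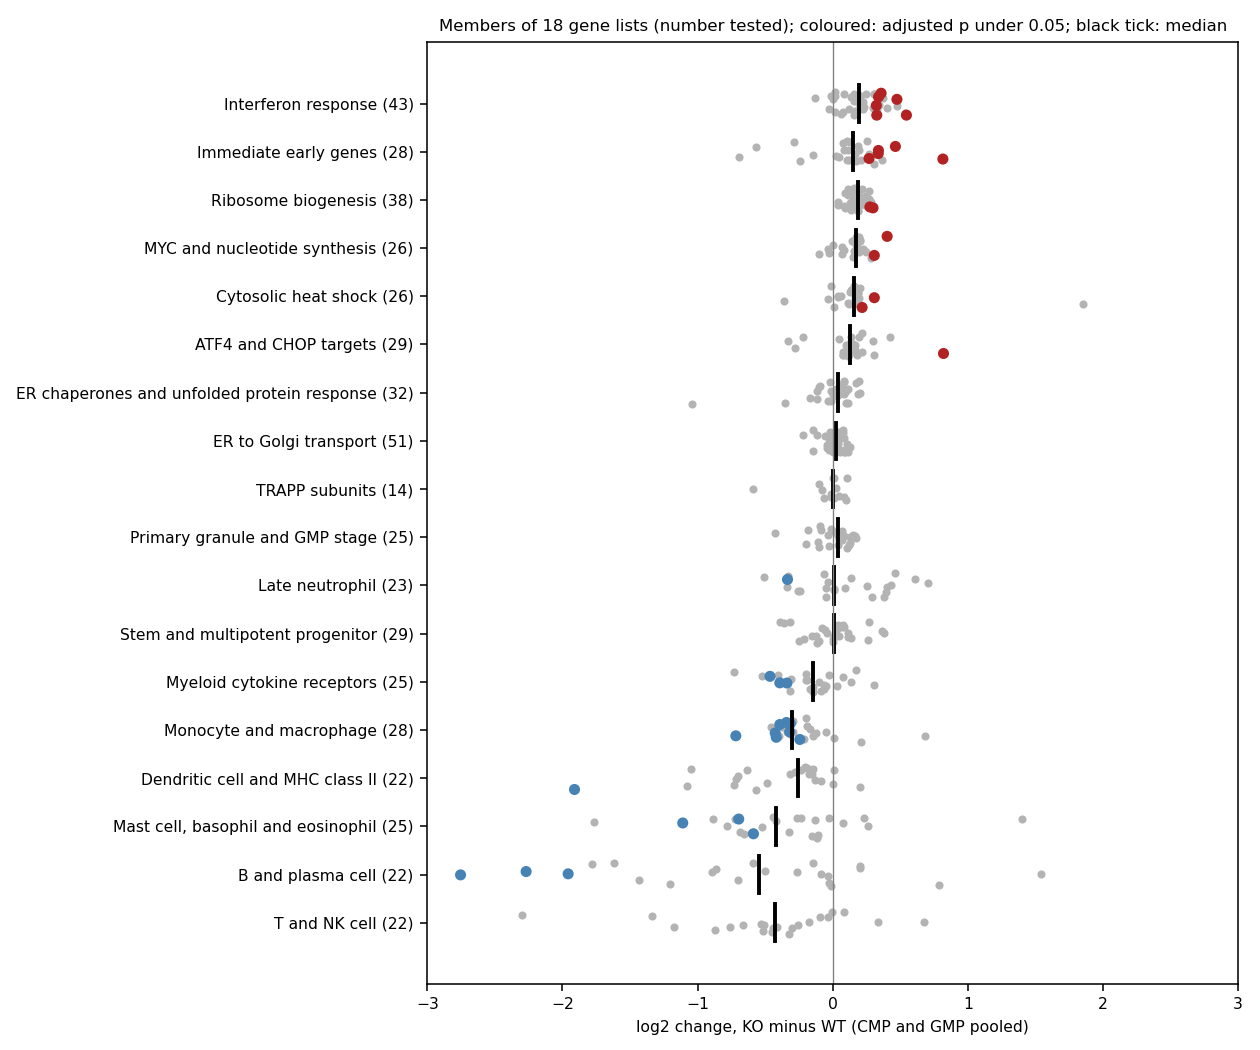
Log2 change (KO minus WT, both cell types pooled) of the tested members of 18 gene lists, a point per gene with vertical scatter for legibility, and a black tick at the list's median. Coloured points passed an adjusted p under 0.05 (red higher, blue lower in KO). Medians run from 0.19 (interferon response) to -0.55 (B and plasma cell), and the medians of the ER and TRAPP lists lie near 0.

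Gene groups nearest to the known role of TRAPP showed no called change. Of 51 ER to Golgi transport genes 0 passed, with a median of 0.03. Of 32 genes of ER chaperones and the unfolded protein response 0 passed, with a median of 0.04. Their summed level was higher in KO: 9477 and 9808 CPM in KO CMP against 8454 and 9003 CPM in WT CMP. In GMP it was 16880 and 16860 CPM in KO against 15680 and 16360 CPM in WT. Without overlap in both cell types, 8 of the 32 were higher and 2 lower, beside 7.73% and 7.8% of all tested genes. Hspa5 (BiP), the main ER chaperone, had 993 and 1077 CPM in KO CMP and 1781 and 1773 CPM in KO GMP, against 813 and 892 CPM in WT CMP and 1564 and 1689 CPM in WT GMP (0.20 ± 0.05, adjusted p = 0.135). Of 25 primary granule genes 0 passed, with a median of 0.04, and of 29 stem and multipotent progenitor genes 0 passed, with a median of 0.01. In the late neutrophil list, 1 of 23 was called, the chemokine receptor gene Cxcr4, which fell by 0.34 on the log2 scale, and the median was 0.01. In CMP alone 2 members of that list, Chi3l3 and Cd177, were called higher (1.08 and 1.18, adjusted p = 0.0166 and 0.0326), and in GMP alone 0 were called, with -0.31 for Chi3l3 and -0.13 for Cd177. Of its markers, Ngp had 8.64 and 9.43 CPM in KO CMP and 56.4 and 54.4 CPM in KO GMP, against 3.88 and 6.87 CPM in WT CMP and 71.5 and 75.1 CPM in WT GMP. KO was thus above WT in CMP and below it in GMP, and Ngp passed neither test nor that of the difference between cell types (adjusted p = 0.212, 0.789 and 0.865). Camp had the same order, Ltf was higher in KO in both cell types, and S100a8, S100a9 and Lcn2 overlapped in GMP. Over the whole list in CMP alone, 10 of 23 were positive, with a median of -0.05. Of 25 myeloid cytokine receptor genes, Csf1r, Cxcr4 and Csf2rb2, a mouse beta chain of the interleukin-3 receptor, were lower and 0 higher. The median was -0.15 and 5 of the 25 were positive. Over all tested genes 0.501% were called lower and 47.4% were positive. Csf2rb2 has the close paralog Csf2rb, so its value is uncertain. Erythroid and megakaryocytic lists (25 genes each) held 0 calls, with medians of 0.04 and 0.05. Of 43 DNA replication genes 0 passed, with medians of 0.09 pooled, 0.17 in CMP alone and -0.002 in GMP alone.

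Whether the effect differed between CMP and GMP was tested with an interaction term. Of 14959 genes, 1 differed in the positive direction (CMP minus GMP, 0.00668%) and 1 in the negative direction (0.00668%), beside 326 and 399 at an unadjusted p under 0.05. Tor1aip1, which encodes a nuclear envelope protein that activates torsin ATPases, had 36.1 and 30.5 CPM in KO CMP against 94.3 and 85.7 CPM in WT CMP, and 105 and 107 CPM in KO GMP against 106 and 110 CPM in WT GMP. It was thus lower in KO CMP with the GMP levels close together (difference of effects -1.41, adjusted p = 0.0263). Chi3l3, a chitinase-like protein of myeloid cells, had 4.84 and 4.37 CPM in KO CMP against 2.36 and 1.97 CPM in WT CMP, and 149 and 152 CPM in KO GMP against 183 and 191 CPM in WT GMP (difference 1.40, adjusted p = 0.0263). Chi3l3 has close paralogs, so its value is uncertain. Without 1 library, 0 to 4 positive and 0 to 5 negative differences were called. Across 10060 genes at 5 CPM or more, the effects in CMP and GMP had a Pearson r of 0.44 and a Spearman rho of 0.44. Those comparisons share no library, though they may share animals, and genes are not independent replicates. Of these 10060 genes, 65.7% had the same sign in both cell types. Among the same 10060 genes, 175 of the 200 with the smallest p in CMP had the same sign in GMP. Of the 200 with the smallest p in GMP, 173 had the same sign in CMP.

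**Figure D3:**
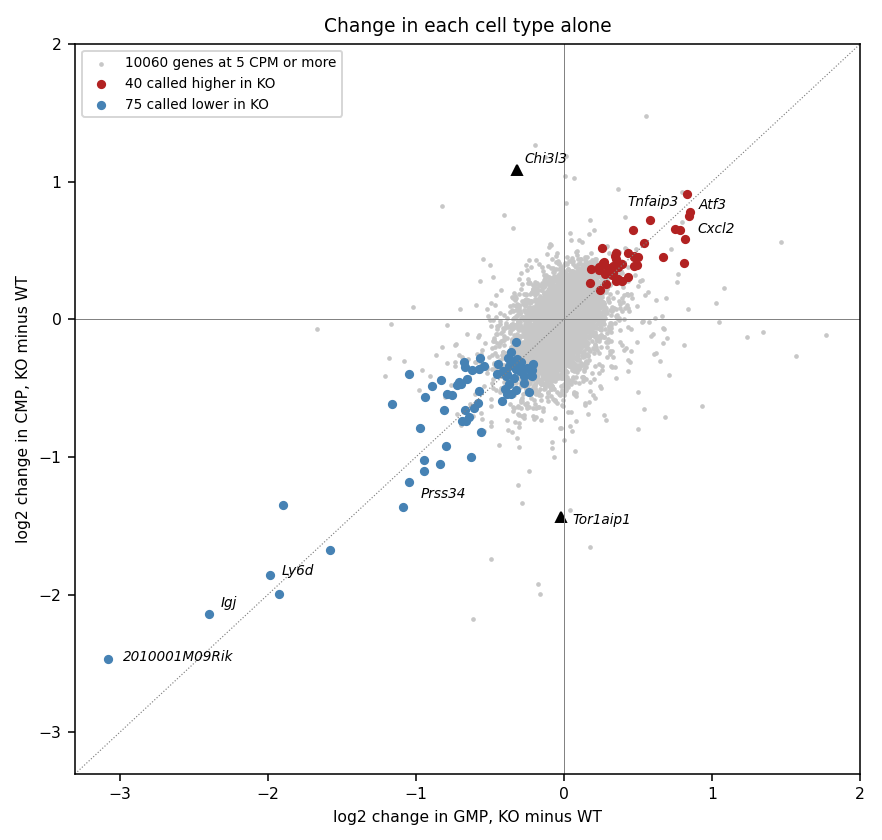
Log2 change (KO minus WT) in CMP, vertical axis, against GMP, horizontal axis, from a fit of the 8 libraries as 4 groups, with 10060 genes at 5 CPM or more in grey and the genes called in the pooled fit in red (40 higher) and blue (75 lower). All called genes have the same sign on both axes, as follows from their separation within each cell type. Tor1aip1 and Chi3l3 (triangles) lie off the dotted line of equal change.

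The effect was then set against that in the libraries numbered 1 and 2 (3 KO and 4 WT). The split into sets was made with earlier results known in which the sets stood apart. Tests between the sets, that of Trappc1 included, therefore describe a difference already seen. In a fit of all 15 libraries, the effect in libraries 3 and 4 minus that in 1 and 2 was positive for 1229 of 16183 genes (7.59%) and negative for 1172 (7.24%). In that fit the contrast in libraries 1 and 2 gave 2122 higher (13.1%) and 2168 lower genes (13.4%). The 40 and 75 calls in libraries 3 and 4 come from their own fit of 8 libraries, so the counts are not of 1 form. A fit of all 15 libraries, with a term for each group in each set, gave 5 and 6 for libraries 3 and 4. Across 10060 genes the effects of the sets, which share no library, had a Pearson r of 0.22 and a Spearman rho of 0.19. Of the 40 genes higher in libraries 3 and 4, 33 were also positive in 1 and 2, where 24 were called higher and 4 called lower. Of the 75 lower genes, 61 were also negative in 1 and 2, where 42 were called lower and 5 called higher. Over all 16183 genes of the fit of 15 libraries, 52.9% were positive in libraries 1 and 2. The effect differed between the sets for 47 of the 115.

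Of the 28 monocyte genes, 8 were lower and 0 higher in libraries 3 and 4 (median -0.30), and 21 were lower and 6 higher in 1 and 2 (median -1.08). The effect differed between the sets positively for 13 and negatively for 4. Csf1r changed by -0.39 in libraries 3 and 4 and by -2.02 in 1 and 2 (adjusted p of the difference 7.66e-06), and Irf8 by -0.42 and -1.85 (adjusted p 5.31e-05). Of the 22 B cell and plasma cell genes, the difference was positive for 1 and negative for 2. The log2 change of Igj was -2.27 in libraries 3 and 4 and -0.15 in 1 and 2 (adjusted p of the difference 0.0372), and that of 2010001M09Rik was -2.75 and 0.05 (adjusted p 0.0103). No difference was called for Pou2af1, at -1.96 and -0.40 (adjusted p 0.118), or for Ly6d, at -1.91 and -1.02 (adjusted p 0.396). These genes were chosen after their values were seen. Cxcl2 was higher in KO libraries 3 and 4 (0.80) and lower in KO libraries 1 and 2 (-1.50, adjusted p of the difference 8.37e-05). Of 25 primary granule genes, 23 differed between the sets, with medians of 0.04 in libraries 3 and 4 and -1.40 in 1 and 2. Of 32 ER chaperone genes, 25 differed, with medians of 0.04 and -0.45, and of 29 stem and multipotent genes, 18 differed, with medians of 0.01 and 1.12. Number set and any difference in mice, sort or sequencing run between the sets cannot be told apart.

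**Figure D4:**
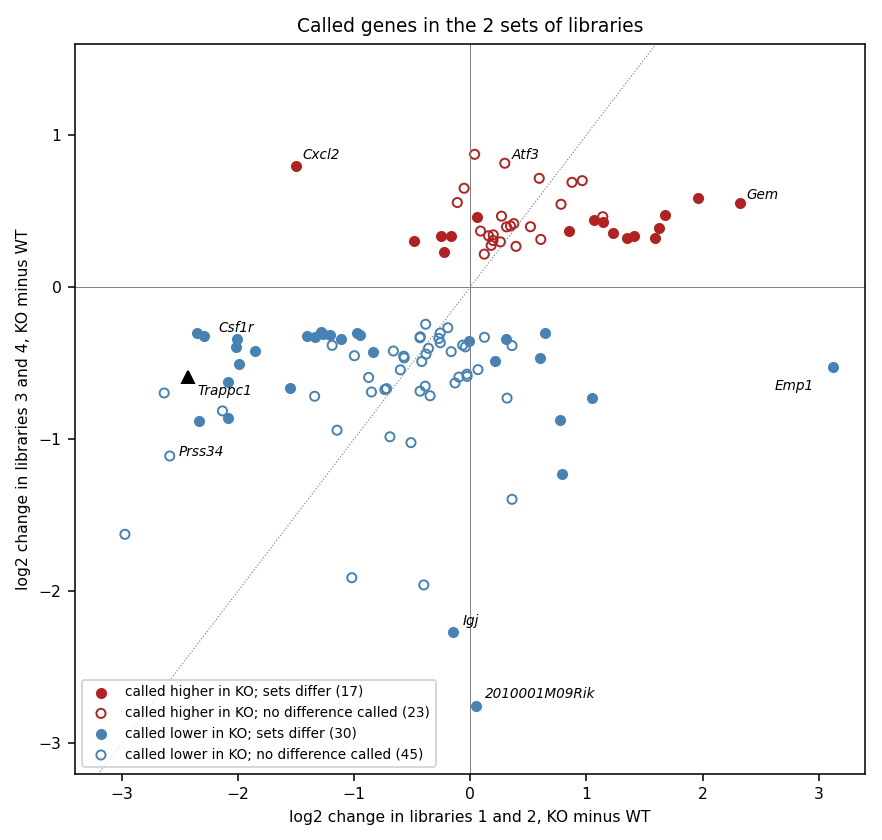
Log2 change (KO minus WT, both cell types pooled) of the 115 called genes in libraries 3 and 4, vertical axis, against libraries 1 and 2, horizontal axis, with filled points where the effects differed (17 higher and 30 lower genes) and open points where no difference was called. Trappc1 (triangle) lies left of the dotted line of equal change, at -2.43 in libraries 1 and 2 and -0.59 in libraries 3 and 4, and Igj lies near 0 horizontally.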

How the data were processed

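RNA was taken from sorted progenitors and libraries were made with a SMARTER mRNA-Seq kit, per the labels' protocols. Reads were aligned to mm10 with HISAT, per the submitters' processing notes; versions, the counting tool and the annotation were not stated in the labels. The authors deposited estimated counts per gene symbol with no normalization, per the file headers. Low values favour multiples of 4 (38% of 40915 values from 1 to 40, 25% in an even spread), so 4 units were taken as about 1 fragment when depth is given in fragments. In the table, 25 symbols had been turned into dates.

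The values were rounded and tested with edgeR 4.0.16 in R 4.3.3 (quasi-likelihood F-test, TMM factors, filterByExpr over 4 groups, which kept 14959 of 23337 genes), with genotype and cell type as terms and Benjamini-Hochberg adjustment over all tested genes at 0.05. Every adjusted p in the text comes from this tool unless another is named. Residual degrees of freedom were 5, 4 for the interaction and 9 for the fit of 15 libraries. The standard error is the size of the log2 change divided by the root of F. The pipeline was tested on simulated data. Limma 3.58.1 and DESeq2 1.42.0 served as alternatives, with other scaling, filters, blocks and libraries left out.

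Within groups, libraries differed from each other by more than sampling noise, so none was counted as a duplicate. Named genes were Trappc1, the 15 largest called changes per direction at a mean of 5 CPM or more without overlap, up to 4 members of each list by p, and the 5 smallest p per direction for each difference. Il10ra, Ctsh and the genes named as called in all 8 fits that left out 1 library were chosen after their values were seen, as were the genes printed for the differences between number sets in the report. Members and gene lists were chosen with earlier results of these data known. Gene positions are from GENCODE M21 (GRCm38), and promoters and gene synonyms from RefSeq (GRCm38.p6).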

Additional observations from a re-analysis of the deposited data

Results flagged for a closer look

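Between cell types, the effect of genotype differed for Tor1aip1 (CMP minus GMP, -1.41 on the log2 scale) and Chi3l3 (1.40), by the interaction term. When 1 library at a time was left out, 0 to 4 positive and 0 to 5 negative differences were called.

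Between the number sets, 11 genes are named by rule for a tested difference of effects (libraries 3 and 4 minus 1 and 2, log2). Trappc1 differed by 1.83. Neutrophil and monocyte genes differed by far more: Ngp by 6.0, Chi3l3 by 5.70, S100a9 by 5.27 and Ly6c1 by 3.85. The log2 changes of these genes in libraries 1 and 2 were -5.85 for Ngp, -5.41 for Chi3l3, -4.86 for S100a9 and -3.98 for Ly6c1. Acpl2 differed by 1.25. In the other direction, Sulf2 differed by -2.41, Dmwd by -1.58, Selp by -1.42, Psrc1 by -1.36 and Fyn by -1.36, and these were higher in KO of libraries 1 and 2 (2.41 for Sulf2, 1.70 for Dmwd, 1.30 for Selp, 1.36 for Psrc1 and 1.22 for Fyn). Libraries 1 and 2 hold 1 KO GMP library.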

How the results depend on the processing

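All 115 called genes kept their direction in every alternative, which their separation within both cell types had nearly fixed in advance. The number called moved. Higher and lower calls were 287 and 392 with DESeq2, 56 and 117 with values divided by 4, 53 and 112 without the filter on low values, 5 and 6 with all 15 libraries in the fit, 4 and 15 in CMP alone and 3 and 8 in GMP alone. Scaling by relative log expression gave 40 and 78. Without 1 library there were 7 to 34 higher and 14 to 69 lower calls. Of the 115, 9 were still called with all 15 libraries. After seeing the data, 2 alternatives were added: limma-voom with libraries of 1 genotype and number correlated (37 and 72, consensus correlation 0.141) and the mean of CMP and GMP per genotype and number (1 and 3). Correlations of the deviations of same-numbered libraries were positive for every pair of groups, from 0.0951 to 0.502 (KO CMP with WT CMP). Not all exceed 0.1, the mark used, so the main fit kept no block by number. It does not remove what same-numbered libraries may share, and the source of these correlations was not tested. With the replicate block by library number, 209 higher and 247 lower genes were called, and with the replicate block by cell type and library number 130 and 200.

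Trappc1 missed the threshold as reported and passed it without the filter (-0.594), with DESeq2 (-0.596), with values divided by 4 (-0.587), with either replicate block (-0.586) and without WT CMP 3 (-0.632). Without 1 library its log2 change ran from -0.656 to -0.464. Differences between cell types numbered 12 positive and 20 negative with DESeq2 and 1 and 2 without the filter, and 0 to 4 and 0 to 5 without 1 library. Trappc8 turned from -0.08 to 0.0253 in GMP alone and was called in neither. Differences between the number sets ran from 946 to 1133 positive and 883 to 1055 negative without 1 library. The cause of these shifts was not tested. Each arm has 2 libraries per cell type, and leaving out 1 assumes that the lone library varies like the others.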
